A study of Mus musculus with 2 samples.

Results

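The fibroblast growth factor (FGF), platelet-derived growth factor (PDGF), epidermal growth factor (EGF) and hepatocyte growth factor (HGF) families were followed in sinusoidal endothelial cells of the mouse liver (LSEC), whose pores let plasma reach the hepatocytes. The members were all genes whose name in the wild-type array file was that of a ligand or receptor of these families, 48 of the 31894 genes and unnamed transcripts on the array. They comprised 37 ligands and 11 receptors, read by 71 probes of 60 bases on 161 spots. Fgf11, Fgf12, Fgf13 and Fgf14, whose proteins stay inside the cell, were counted with the ligands by name. Genes were taken in by name, with no filter on a measured value, but the families were chosen with earlier results of these data known.

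LSEC came from a male ob/ob mouse and a male wild-type (WT) mouse, each aged 8 weeks. Animals of the ob/ob genotype lack functional leptin through a mutation on both alleles and become obese. Strain, litter and diet were not given in the sources used here. Both cell preparations were made by collagenase digestion and kept overnight in medium with fetal serum before RNA extraction, so every value describes cultured cells. Each RNA was hybridised to 1 one-colour Agilent array, so each genotype has 1 array, no test was possible and every difference compares 2 arrays.

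Ligands of these families bind receptor tyrosine kinases, which dimerise and signal through the RAS-ERK and PI3K pathways. EGF-like ligands are made as membrane precursors and shed by proteases, PDGF chains pair into dimers, and HGF is secreted as an inactive chain that proteases cleave. In the liver, endothelial PDGF-B acts on the PDGF receptors of stellate cells and other mural cells, HGF from sinusoidal and stellate cells acts on the receptor MET of hepatocytes, and several FGFs act as hormones through klotho co-receptors.

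Signals are given as scaled signal, the processed intensity of a probe as a percent of the 75th percentile of its own array. All differences are log2 values of ob/ob minus WT, and a gene was counted as higher or lower at a difference of at least 2-fold. A gene counted as measured on an array when the scanner marked more than 50% of the spots kept for it as well above background. With several probes, the brightest of those measured on both arrays represents the gene, and signals of different probes cannot be set against each other. The error given is the scanner's own estimate, combined over both arrays into an error of the difference. Its median SD was 0.20 on the log2 scale over the spots well above background on both arrays. It holds no spread between mice. Over the 259 probes spotted 10 times, the median SD of the difference between paired spots was 0.05.

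The endothelial label was checked on markers. All 13 sinusoidal endothelial markers, Stab2, Stab1 and Lyve1 among them, and all 9 pan-endothelial markers were measured on both arrays, with 0 beyond 2-fold and medians of -0.19 and 0.12. Markers of other liver cells were measured too and are given beside the results they touch. Cholangiocyte markers had 2 of 7 genes measured in both preparations and 4 in ob/ob LSEC alone, lymphocyte markers 2 of 8 and 4, and mesothelial markers 1 of 5 and 0. The defining genes Msln, Upk3b and Wt1 of mesothelium and Cd79a of B cells were at background on both arrays.

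The probes on which the larger differences rest are shown by the first 30 of their 60 bases, 5′ to 3′ in the sense of the transcript, with positions of the whole probe on mouse build mm9. They are shown because several genes were read by 1 probe only, and because the probes of Egfr read different stretches of the gene. The probe of Pdgfrb, a gene also beyond 2-fold and read by 1 probe, is not shown.
Ereg (chr5:91522553-91522612, plus strand): gatagtcatgtaccttgacatagtgaagga
Areg (chr5:91570090-91570149, plus strand): ctcagaggagtatgataatgaaccacaaat
Btc (chr5:91786948-91787007, minus strand): ggatccttgtacattttactttacaagaga
Nrg1 (chr8:32928500-32928559, minus strand): gaagaattacaggccaggctgtctagtgta
Egfr, brightest probe (chr11:16813815-16813874, plus strand): gttgcaagccactctaactgtagcaatgaa
Egfr, upstream probe (chr11:16783556-16783615, plus strand): tctggaagtatgcagatgccaataatgtct
Egfr, middle probe (chr11:16787172-16787231, plus strand): gaagtgtggccatctgggtacgttcaatgg
Pdgfb, brighter probe (chr15:79826376-79826435, minus strand): gttccttctgcttccttcagtttgtaaagt
Pdgfb, dimmer probe (chr15:79827438-79827497, minus strand): actccaggctgcaggcttctcttgactcca
Pdgfc (chr3:81017572-81017631, plus strand): aaatatggagccattgctaacctacccctt
Pdgfra (chr5:75593888-75593947, plus strand): tgtatatatctgttgctatgtagacttgga
Hgf (chr5:16124829-16124888, plus strand): agtgtgtttgaagcatccatggatacatga
Fgf7 (chr2:125916134-125916193, plus strand): gctcttcccacaaataatcatgcttatttc
Each of these probes covers an unbroken stretch of 60 bases of the genome. The exon or untranslated region each lies in was not analysed here, since no annotation of mm9 was used.

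Of the 48 genes, 28 were measured on both arrays. A further 4 were measured in ob/ob LSEC alone, 0 in WT LSEC alone and 16 in neither. Across all genes on the array, 56.9% were measured in both, 6.84% in ob/ob LSEC alone and 35.4% in neither. Among the 28, 8 were at least 2-fold higher in ob/ob LSEC (Ereg, Pdgfc, Pdgfb, Areg, Pdgfrb, Egfr, Pdgfra and Hgf), 2 were at least 2-fold lower (Nrg1 and Fgf7) and 18 lay within 2-fold. The background over the 18147 genes measured on both arrays was 5.83% higher and 2.29% lower, or 8.12% either way, against 28.6% of the 28 members higher. The 8 genes on the higher side came from the EGF, PDGF and HGF families, and none was an FGF or an FGF receptor. With 13 genes of the FGF family measured on both arrays, 0 higher is near the share of all genes.

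Receptors were measured on both arrays more often than ligands, at 81.8% of genes against 51.4%. Of the 37 ligands, 19 were measured in both preparations, 4 in ob/ob LSEC alone and 14 in neither. Of the 11 receptors, 9 were measured on both and 2, Erbb3 and Erbb4, on neither. Among those measured on both, 5 of 19 ligands and 3 of 9 receptors were at least 2-fold higher, and 2 ligands and 0 receptors were at least 2-fold lower. The median difference was -0.12 over the ligands and 0.01 over the receptors, beside -0.12 over all genes measured on both arrays. The order of the 2 medians turned with normexp background correction and 75th percentile scaling, at -0.54 for ligands and -0.70 for receptors. It turned also when genes measured on at least 1 array were taken in, at 0.10 and 0.01. Ligands also differed by family. Those outside the FGF family had a median of 0.90, with 5 of 10 measured genes higher and 1 lower. The FGF ligands had a median of -0.25, with 0 of 9 higher and 1 lower. Over all genes 5.83% were higher and 2.29% lower, so 0 of 9 higher is near the share of all genes.

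**Figure D1:**
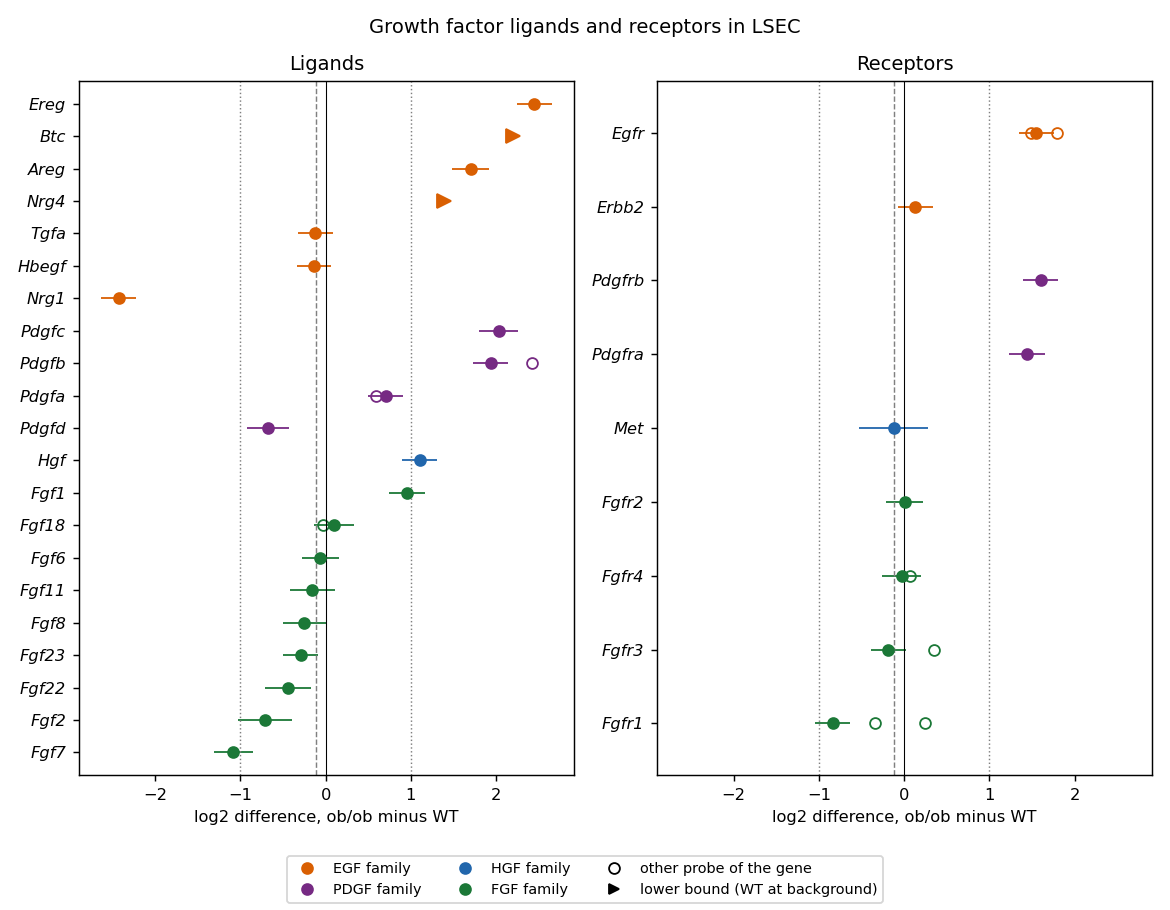
Log2 difference, ob/ob minus WT, of each ligand (left panel) and receptor (right panel) measured on both arrays, coloured by family. Filled points are the probe that represents the gene with the scanner's error estimate (1 SD), and open points are other measured probes. Triangles, labelled as lower bounds, set Btc and Nrg4, at background in WT, against the lowest measured WT signal. They are not strict bounds, since a brighter WT spot can be at background. Dotted lines mark 2-fold and the dashed line the median of all genes, -0.12. The EGF and PDGF families spread from -2.43 for Nrg1 to 2.44 for Ereg, and most FGF ligands lie just below 0.

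The EGF-like ligands held both the highest and the lowest difference of the set. Epiregulin, Ereg, a ligand of EGFR and ERBB4, had a scaled signal of 251% in ob/ob LSEC and 46.1% in WT LSEC, a log2 difference of 2.44 ± 0.20 or 5.44-fold, rank 198 from the highest of 18147 genes. Amphiregulin, Areg, a ligand of EGFR, had 16.8% in ob/ob and 5.15% in WT LSEC, a difference of 1.70 ± 0.22. Both were brighter in ob/ob LSEC by more than the scanner's error. Ereg was 2.12 to 2.52 over the alternatives tried, whereas Areg was 0.76 with normexp and quantile normalization and -0.002 with normexp and the 75th percentile. Macrophages can make both, as well as Pdgfb. Of 11 Kupffer cell and macrophage markers, 9 were at least 2-fold higher in ob/ob LSEC and 0 lower, with a median of 1.51. Their summed scaled signal was 14436% in ob/ob and 5593% in WT LSEC. Most of this sum came from Marco (6357% in ob/ob and 2608% in WT LSEC) and Cd5l (4545% in ob/ob and 1839% in WT LSEC). The part of these cells in the values of Ereg, Areg and Pdgfb was not tested.

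Betacellulin, Btc, and neuregulin 4, Nrg4, were above background in ob/ob LSEC only. Btc, a ligand of EGFR and ERBB4, had 5.73% in ob/ob LSEC and 0.261% in WT LSEC, where it was not well above background. Its signal in ob/ob LSEC was 4.59-fold the dimmest signal well above background on the WT array, 1.25%. This is not a strict lower bound, since some WT spots brighter than 1.25% were not well above background. Nrg4, a ligand of ERBB4, had 3.26% in ob/ob and 0.589% in WT LSEC by one of its probes. This ob/ob signal was 2.61-fold the same dimmest WT signal, while the other probe was at background on both arrays. Egf itself was spotted 10 times. All 9 kept ob/ob spots were well above background, at 1.85% to 2.70% with a median of 2.10%, against 4 of the 9 kept WT spots, at 1.04% to 2.40% with a median of 1.30%. The Egf spots of the arrays overlapped. The ratio of the mean signals was 1.48, and the differences between paired spots ran from -0.08 to 1.04, so no bound is given.

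Neuregulin 1, Nrg1, a ligand of ERBB3 and ERBB4, went the other way. Its probe had 13.6% in ob/ob LSEC and 73.0% in WT LSEC, a difference of -2.43 ± 0.21, or 5.38-fold lower in ob/ob. It had rank 16 from the lowest of the 18147 genes, and the value stayed between -2.71 and -1.81 over the alternatives tried. It rests on 1 spot per array, with a local background close to the array median. Transforming growth factor alpha, Tgfa, a ligand of EGFR, was spotted 10 times and had 20.8% to 22.4% in ob/ob LSEC (median 21.0%) and 22.0% to 25.1% in WT LSEC (median 22.8%). Its spots overlapped, with a difference of -0.12. Heparin-binding EGF, Hbegf, which binds EGFR and ERBB4, had 258% in ob/ob and 284% in WT LSEC, a difference of -0.14 ± 0.20. Nrg2 and Nrg3 were not well above background on either array.

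Ereg, Areg and Btc share a position that their names do not show. In RefSeq's gene order on assembly GRCm38.p6 they follow each other on chromosome 5, after Epgn, with no other protein-coding gene between them. The mm9 probes of these 4 genes span 323 kb. Epigen, Epgn, a further ligand of EGFR that was not among the 48, was lower in ob/ob LSEC, at 3.22% against 8.18% in WT LSEC, a difference of -1.35. Neighbours in this cluster therefore lay on opposite sides of 2-fold.

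Of the 4 receptors of the EGF family, 2 were measured. Egfr, the receptor of EGF, TGF-alpha, amphiregulin and other ligands, was read by 3 probes. The brightest was spotted 10 times, at 139.9% to 158% in ob/ob LSEC (median 145%) and 48.0% to 52.7% in WT LSEC (median 49.1%). Every ob/ob spot was brighter than every WT spot, and the difference was 1.55, with an SD of 0.05 between the 10 paired spots. The other probes lie upstream in the genome and are assigned to another transcript of the gene. They gave 7.62% in ob/ob and 2.20% in WT LSEC (1.79 ± 0.27), and 8.95% in ob/ob and 3.19% in WT LSEC (1.49 ± 0.24), so the 3 stretches of the gene were brighter in ob/ob LSEC by a like amount.

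Erbb2, the co-receptor without a ligand of its own, had 58.4% to 63.1% in ob/ob LSEC (median 59.5%) and 50.7% to 58.3% in WT LSEC (median 54.5%). The ob/ob spots all lay just above the WT spots, yet the difference was only 0.13, within the scanner's error, and it was -0.15 with scaling on the array median. Erbb3 and Erbb4, the receptors of the neuregulins, had at most 0.268% in ob/ob LSEC and 0.331% in WT LSEC and were not well above background on either array.

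**Figure D2:**
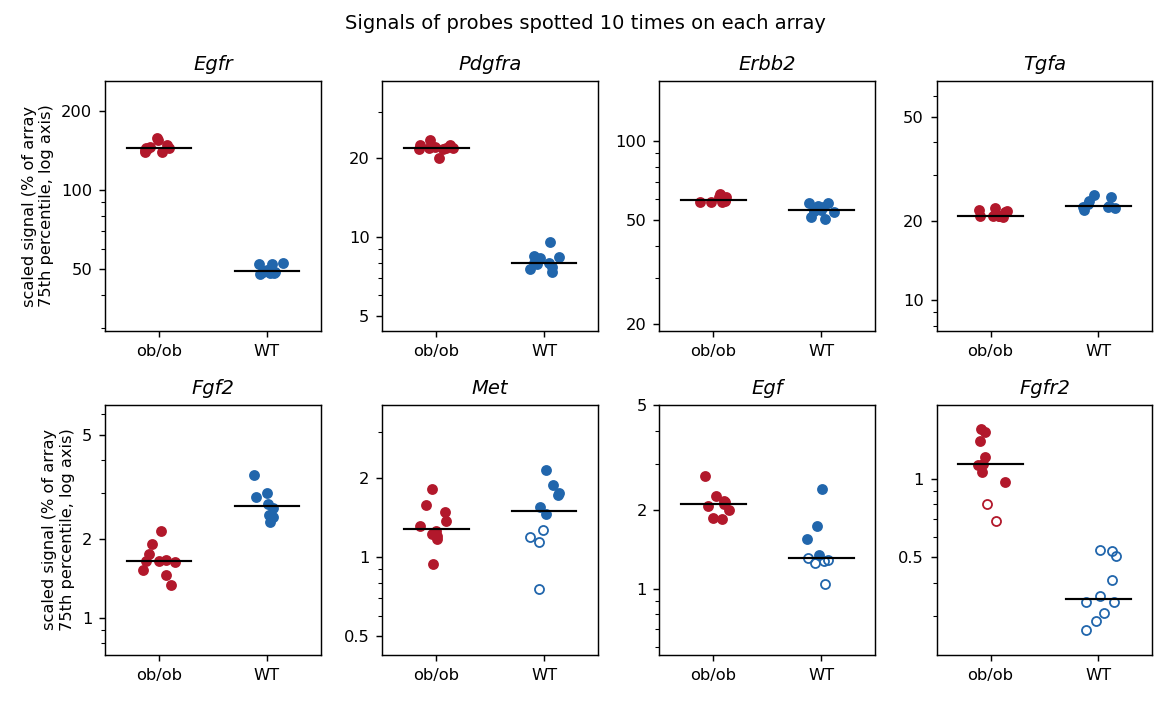
Scaled signal (percent of the 75th percentile of the array, log axis) of the probes spotted 10 times, with ob/ob left of WT in each panel. Each point is a kept spot, filled where well above background and open where not, and bars are medians. Spots are repeats on 1 array and not replicate mice. The ob/ob and WT spots of Egfr and Pdgfra are widely apart, those of Tgfa, Met and Egf overlap, and those of Fgf2 are lower in ob/ob. The Fgfr2 panel shows its downstream probe.

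In the PDGF family all 6 genes were measured, and 4 were at least 2-fold higher in ob/ob LSEC and 0 lower. Pdgfb, the chain that endothelial cells supply to mural cells, had 699% in ob/ob LSEC and 183% in WT LSEC by its brighter probe, a difference of 1.93 ± 0.20 or 3.82-fold. Its other probe, nearer the 5′ end of the transcript, had 11.05% in ob/ob and 2.06% in WT LSEC, a difference of 2.43 ± 0.27. Both probes thus placed Pdgfb beyond 2-fold. Pdgfc, a ligand activated by proteolysis, had 15.7% in ob/ob and 3.85% in WT LSEC, a difference of 2.03 ± 0.23, but 0.89 and 0.03 with normexp under quantile and 75th percentile scaling.

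The remaining PDGF ligands lay within 2-fold, but Pdgfa was 1.01 with quantile normalization of the processed signal and 1.03 with a lowess curve, and Pdgfd was -1.54 with normexp and the 75th percentile. Pdgfa had 3112% in ob/ob and 1913% in WT LSEC, a difference of 0.70 ± 0.20, and 0.59 by its second probe, which shares 51 of 60 bases with the first. Pdgfd, the other ligand activated by proteolysis, had 2.99% in ob/ob and 4.79% in WT LSEC, a difference of -0.68 ± 0.24.

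Both PDGF receptors were higher in ob/ob LSEC. Pdgfra, spotted 10 times, had 20.1% to 23.4% in ob/ob LSEC (median 22.0%) and 7.36% to 9.57% in WT LSEC (median 7.94%). Its spots did not overlap, and the difference was 1.44 with an SD of 0.12 between paired spots. Pdgfrb had 42.9% in ob/ob and 14.1% in WT LSEC, a difference of 1.60 ± 0.21. With normexp and the 75th percentile the differences were 0.07 for Pdgfra and 0.72 for Pdgfrb, and Pdgfra was 0.70 with normexp and quantile normalization. Pdgfa, Pdgfb, Pdgfc, Pdgfra and Pdgfrb kept a positive difference under all 10 alternatives.

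Stellate cells and fibroblasts carry both PDGF receptors, so their markers stand beside these values. Of 13 such markers, Pdgfra and Pdgfrb left out, 11 were measured on both arrays, 9 were at least 2-fold higher in ob/ob LSEC and 0 lower, with a median of 1.71. Col1a1 and Reln were measured in ob/ob LSEC only. The summed scaled signal of the list was 4914% in ob/ob and 1468% in WT LSEC. Most of this sum came from Dcn (3322% in ob/ob and 800% in WT LSEC) and Ecm1 (1406% in ob/ob and 599% in WT LSEC). The part of stellate cells and fibroblasts in the PDGF receptor and Hgf values was not tested. In a bulk RNA, more cells of a type and more RNA per cell cannot be told apart.

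Hgf was higher in ob/ob LSEC and its receptor gene Met was not. Hgf had 81.1% in ob/ob and 37.8% in WT LSEC, a difference of 1.103 ± 0.20 or 2.15-fold, just beyond 2-fold. It was 0.82 with scaling on the array median, 0.80 with normexp and quantile normalization and 0.71 with normexp and the 75th percentile. Met, spotted 10 times, had 0.944% to 1.83% in ob/ob LSEC (median 1.29%) and 0.754% to 2.15% in WT LSEC (median 1.51%). All 10 ob/ob spots but only 6 of 10 WT spots were well above background, the spots overlapped and the difference was -0.12 with an SD of 0.32 between paired spots. Met was -1.69 with normexp and the 75th percentile.

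Most FGF ligands were dim or at background. Of 22 FGF genes, 9 were measured in both preparations, 1 in ob/ob LSEC alone and 12 in neither. Those at background on both arrays were Fgf3, Fgf4, Fgf5, Fgf9, Fgf10, Fgf12, Fgf13, Fgf14, Fgf15, Fgf16, Fgf17 and Fgf20. Fgf10, a mesenchymal ligand of FGFR2, was spotted 10 times, and 0 of 9 kept ob/ob spots and 0 of 10 WT spots were well above background. Fgf3, Fgf4 and Fgf15, neighbours on chromosome 7, were all among them.

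Fgf7, a ligand of FGFR2 known from mesenchymal cells, was the only FGF gene beyond 2-fold by its representative probe. It had 3.43% in ob/ob and 7.26% in WT LSEC, a difference of -1.08 ± 0.22, and -0.52 with normexp and quantile normalization. Fgf2, basic FGF, a stimulus of endothelial growth, was spotted 10 times, at 1.34% to 2.14% in ob/ob LSEC (median 1.65%) and 2.32% to 3.53% in WT LSEC (median 2.68%). Every ob/ob spot was dimmer than every WT spot, although the difference of -0.71 lay within 2-fold. Fgf1, acidic FGF, which binds all FGF receptors, had 13.99% in ob/ob and 7.23% in WT LSEC, a difference of 0.95 ± 0.21, just inside 2-fold, and -0.32 with normexp and the 75th percentile. Its second probe was at background on both arrays.

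The other FGF genes measured on both arrays differed by -0.44 (Fgf22), -0.29 (Fgf23), -0.25 (Fgf8), -0.16 (Fgf11), -0.06 (Fgf6) and 0.10 (Fgf18). Fgf11 belongs with Fgf12, Fgf13 and Fgf14 to the factors that stay inside the cell. By their representative probes 7 of the 9 measured FGF ligands had a negative difference, Fgf23 among them although its probes disagreed, beside 11378 of 18147 genes on the array. Fgf18 changed sign under 4 alternatives. Fgf2, Fgf8, Fgf11, Fgf18 and Fgf22 were beyond 2-fold lower with normexp and the 75th percentile, at -1.66 to -1.16. That setting put 21.1% of all genes measured on both arrays at least 2-fold lower, against 2.29% in the setting used here. Among the hormone-like FGFs, Fgf21, which acts through the co-receptor KLB, was above background in ob/ob LSEC only, at 1.03% against 0.277% in WT LSEC. This is below the dimmest measured WT signal, so no fold is given. Fgf23, a hormone known from bone, was read by 2 probes that disagreed. The brighter had 140.6% in ob/ob and 172% in WT LSEC, whereas the dimmer had 8.81% in ob/ob and 1.71% in WT LSEC and was not well above background there, a ratio of 5.14, so no direction is given for Fgf23. In Fgf6, Fgf8 and Fgf22 likewise 1 probe was measured on both arrays and the others were at background on at least 1 array. For Fgf6 and Fgf22 the measured probe is not assigned to a RefSeq mRNA, whereas the other probe is. That other probe had 0.958% in ob/ob and 0.348% in WT LSEC for Fgf6, and 0.165% and 0.250% for Fgf22. The values of Fgf6 and Fgf22 therefore rest on probes of uncertain target.

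All 4 FGF receptors were measured and lay within 2-fold, but array median scaling put Fgfr1 at -1.12, and Fgfr4 was -1.24 with normexp and the 75th percentile. Fgfr1, the main FGF receptor of endothelial and mesenchymal cells, had 479% in ob/ob and 855% in WT LSEC by its brightest probe, a difference of -0.84 ± 0.20. Its other probes gave -0.34 (15.1% in ob/ob and 19.1% in WT LSEC) and 0.24 (33.6% in ob/ob and 28.4% in WT LSEC), so its probes did not share a direction. Fgfr3 was -0.19 by one probe and 0.35 by the other, and Fgfr4, the receptor of hormone-like FGFs on hepatocytes, -0.03 and 0.07.

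Fgfr2 was read by 2 probes on chromosome 7 that share 42 of 60 bases, shifted by 18. They are shown with the bases that only 1 of them holds in capitals, the first 30 bases of the upstream probe and the last 30 of the downstream probe.
Fgfr2, upstream probe (chr7:137307473-137307532, minus strand): ATGCCTTATGAACCCTGTctgcctcagtat
Fgfr2, downstream probe (chr7:137307455-137307514, minus strand): gttaaaacatgaGTGAATGTGTCTTCCTGT
The upstream probe was measured on both arrays, at 7.41% in ob/ob and 7.39% in WT LSEC, a difference of 0.01 ± 0.21. The downstream probe, spotted 10 times, had 0.690% to 1.54% in ob/ob LSEC (median 1.13%) and 0.264% to 0.533% in WT LSEC (median 0.347%). Of its spots 8 of 10 in ob/ob LSEC and 0 of 10 in WT LSEC were well above background, and the groups of spots did not overlap. The mean ob/ob signal of the downstream probe, 1.11%, was below the dimmest measured WT signal, 1.25%, so no fold is given for it. Overlapping probes of Fgfr2 thus differed in signal and detection, and the direction of Fgfr2 is not settled.

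**Figure D3:**
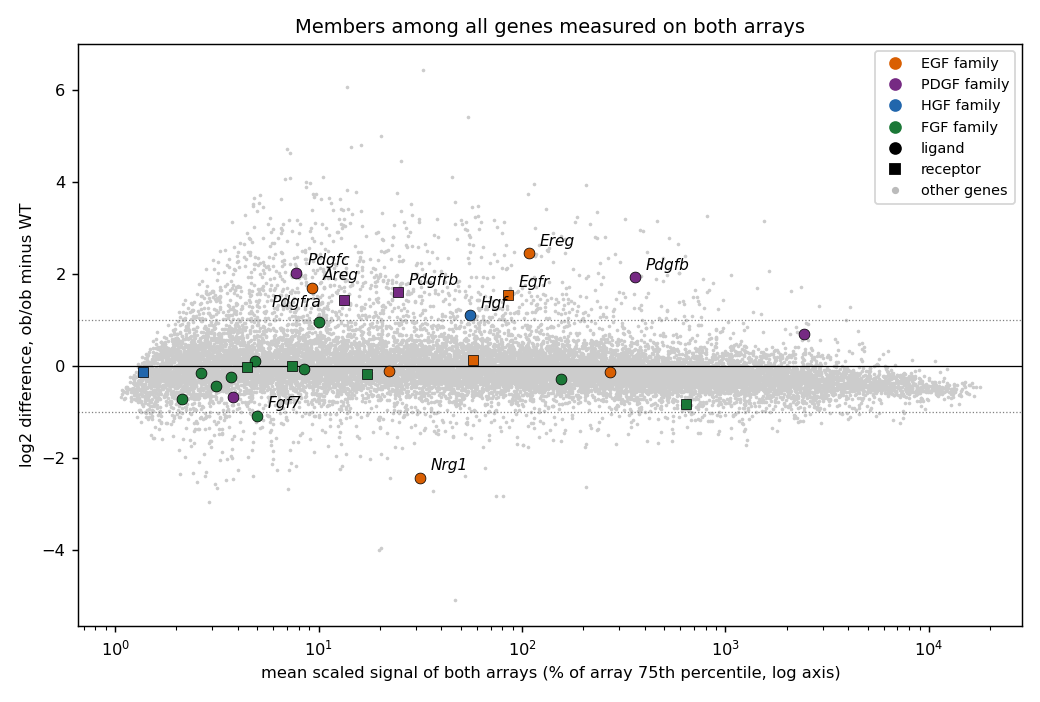
Log2 difference, ob/ob minus WT, against the mean scaled signal of both arrays (percent of the 75th percentile, log axis) for all 18147 genes measured on both arrays (grey) and the 28 members (coloured by family; circles ligands, squares receptors). The 10 members beyond 2-fold, marked by dotted lines, are named; they range from 2.44 for Ereg to -2.43 for Nrg1.

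**Figure D4:**
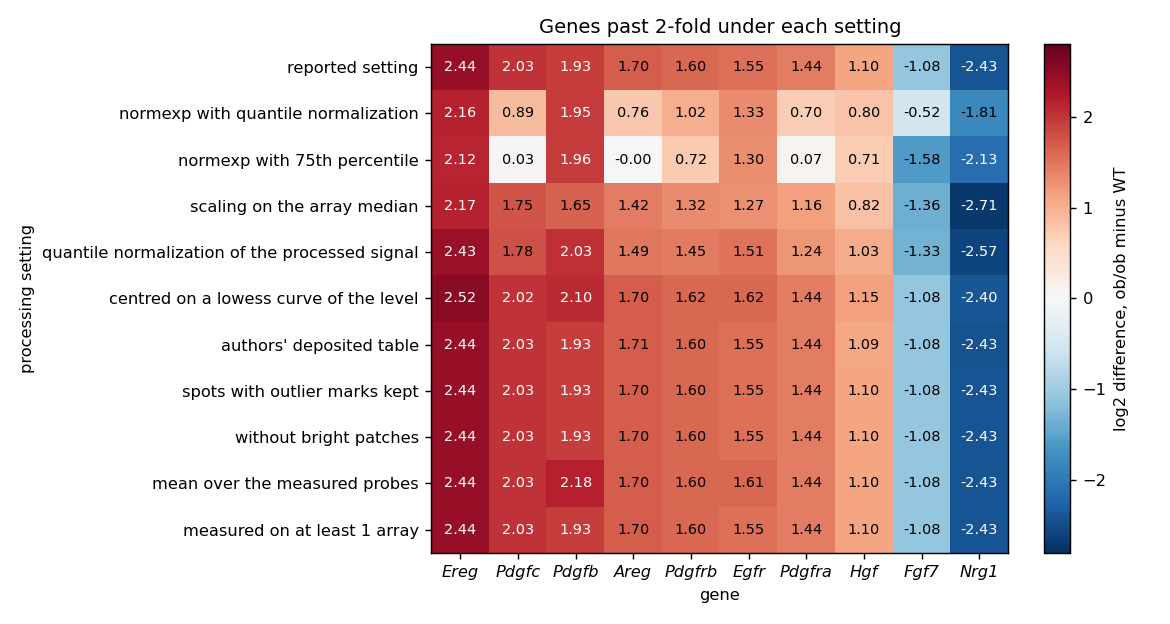
Heat map of the log2 difference, ob/ob minus WT, of the 10 members beyond 2-fold (columns) under the setting used in the text (top row) and the 10 alternatives (other rows), with red for higher and blue for lower in ob/ob LSEC. Ereg, Pdgfb, Egfr and Nrg1 stay beyond 2-fold in all 10, whereas Pdgfc and Pdgfra come close to 0 with normexp and the 75th percentile, at 0.03 and 0.07.

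Other genes of the same pathways were taken from 5 lists. Over all genes measured on both arrays, 5.83% were at least 2-fold higher and 2.29% lower. Co-receptors and extracellular binding partners had 6 of 16 measured genes at least 2-fold higher, 1 lower and a median of 0.73. They included Mst1, the HGF-like protein made by hepatocytes, at 2.49, the heparan sulfate proteoglycan Sdc1 at 2.11 and the endocytic receptor Lrp1, which also binds PDGF, at 1.94. The lower gene was Epgn. Ligand-activating proteases and their inhibitors had 4 of 13 higher, 0 lower and a median of 0.12. Among them were plasminogen, Plg, at 3.08, the HGF activator Hgfac at 1.67 and the plasminogen activator Plat at 1.59. The sheddase Adam17, named after its value was seen, differed by 0.12.

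Beside these stand the hepatocyte markers, of which 10 of 12 were at least 2-fold higher in ob/ob LSEC and 0 lower, with a median of 2.42. Their summed scaled signal was 5017% in ob/ob and 900% in WT LSEC, most of it from Trf, Alb and Serpina1a. Plg, Hgfac and Mst1 are known as hepatocyte products, and hepatocytes also carry Egfr. The part of hepatocytes in these values was not tested.

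Genes of signalling downstream of the receptors made up the remaining lists, to be read beside the 8.12% of all genes beyond 2-fold. Adaptors and proximal effectors such as Frs2, Grb2, Shc1 and Gab1 had 0 of 18 measured genes beyond 2-fold and a median of -0.09, with a range from -0.38 to 0.41. Feedback inhibitors had 1 of 13 higher and 1 lower, with a median of 0.25: Socs3, an inhibitor of cytokine receptors, at 1.34, and the ERK phosphatase Dusp4 at -1.22. Other regulators were named after their values were seen. Dusp6, the phosphatase specific for ERK, differed by 0.24 and Spry1 by 0.78. Spry2, an inhibitor of FGF receptor signalling, was measured in ob/ob LSEC only, at 2.54-fold the dimmest measured WT signal. Transcripts known to be induced by ERK had 4 of 15 higher, 0 lower and a median of 0.42, including the transcription factors Junb at 1.40 and Egr2 at 1.25 and Phlda1 at 1.25. The FGF target genes Etv4 and Etv5 in this list differed by -0.15 and 0.36.

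**Figure D5:**
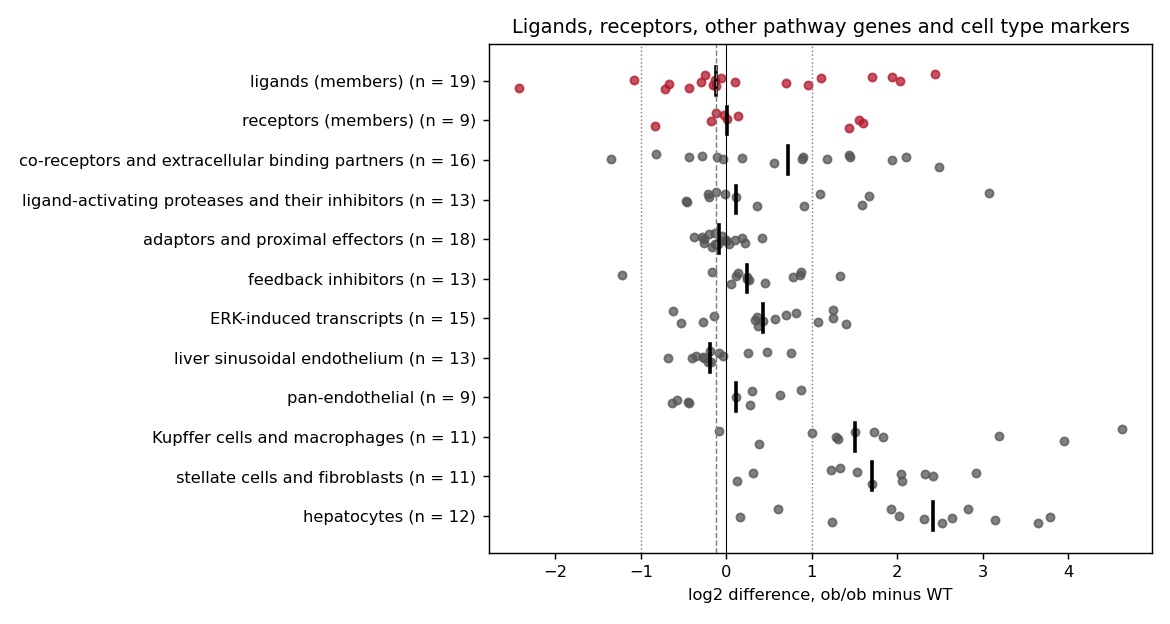
Log2 differences, ob/ob minus WT, of the ligands and receptors (red), of other pathway genes and of cell type markers (grey) measured on both arrays; members are left out of the grey lists. Each point is a gene and bars are medians; dotted lines mark 2-fold and the dashed line the median of all genes. Adaptors and endothelial markers stay within 2-fold, whereas the medians of stellate cell, macrophage and hepatocyte markers are 1.71, 1.51 and 2.42.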

How the data were processed

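RNA of LSEC from 1 ob/ob and 1 WT mouse was measured on Agilent mouse arrays (design 026655). The deposited values are scanner intensities: Feature Extraction 11.0.1.1 subtracted the background and wrote a processed signal for each spot, per the file headers. The authors also deposited a table of 24868 features whose values are a linear ratio of the processed signal to a constant near the 75th percentile of the array. It was used as an alternative only. The number of arrays limits the precision.

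Control spots and spots with outlier marks were left out, the spots of a probe were averaged, and each array was divided by its 75th percentile (intensity 1430 in ob/ob and 989 in WT). Values were computed with python 3.11.15 and pandas 2.3.3, and normexp and quantile normalization with limma 3.58.1 in R 4.3.3. Normexp added an offset of 50 to every intensity. The steps were tested on simulated data. Both arrays lie on 1 slide, so the slide is shared. The text names every member and, of each pathway list, at most the 3 genes furthest beyond 2-fold in each direction. Other list genes are named as examples, chosen after their values were seen. The members and lists were chosen with earlier results of these data known. RefSeq (GRCm38.p6) matched 68 of 71 member probes by accession, all with the same symbol.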

Additional observations from a re-analysis of the deposited data

How the results depend on the processing

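Of 100 values of the 10 genes beyond 2-fold under 10 alternatives, 99 kept their sign and 89 stayed beyond 2-fold. This share overstates stability, since several alternatives could hardly move these genes. Leaving out bright patches, keeping marked spots and taking in genes measured on at least 1 array changed none of the 10. All 11 values that fell within 2-fold came from the normexp settings and from scaling on the array median. Of 180 values of the 18 genes within 2-fold, 164 kept their sign and 11 went beyond 2-fold. These were Met at -1.69, Pdgfd, Fgfr4, Fgf2, Fgf8, Fgf11, Fgf18 and Fgf22 with normexp and the 75th percentile, Fgfr1 with array median scaling, and Pdgfa with a lowess curve and with quantile normalization of the processed signal. Egfr (1.27 to 1.62), Ereg, Pdgfb (1.65 to 2.18) and Nrg1 did so in all 10. With normexp and quantile normalization 4 members were higher and 1 lower in ob/ob LSEC, and all genes split 510 higher to 130 lower, against 1058 to 416 in the text. With normexp and the 75th percentile 3 were higher and 10 lower, the median was -0.54 over ligands and -0.70 over receptors, Areg reversed to -0.00198, and all genes split 369 to 3827, with their median shifted by -0.17. With array median scaling, which shifted the median of all genes by -0.28, the medians were -0.40 over ligands and -0.27 over receptors, 3 members were lower, and all genes split 769 to 977. Quantile normalization of the processed signal put the receptor median at -0.23, with all genes at 917 to 556. A lowess curve shifted the all-gene median by 0.13 and gave a split of 1119 to 313. Taking in genes measured on at least 1 array put the ligand median at 0.10, with 11 members higher. The cause of these shifts was not tested. No paired analysis was possible because each group holds 1 array. Without replicates, differences between mice cannot be told apart from differences between genotypes, and dim genes such as Met, Fgf2 and Egf lie close to background.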
